A study of Mus musculus with 4 samples.

Results

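Lmna and Ahnak are the genes for lamin A/C and for AHNAK. Both were followed here through single-cell RNA sequencing of monocytes and macrophages from the mouse colon. They are 2 of the 11820 genes in the deposited matrix of UMI counts, in which each UMI (unique molecular identifier) stands for 1 captured RNA molecule. The genes were picked because earlier results of these data showed them to vary with stage and diet, so all of their stage and diet differences below are a description. Called, for these genes, says only on which side of a threshold the value fell in a fit over all genes, and the share of all genes called is printed at the first such value of each comparison and holds for both genes. Because such values guided the choice of the genes, no call on them, in any stage, band or cluster, is evidence for the difference. The cells came from the colonic lamina propria of male C57/Bl6N mice, 6-7 week-old at the start. The mice received a coconut-based high-fat diet (HFD, 60 %) or normal chow for 1 week. Both diet groups held 2 mice, named chow 9, chow 11, HFD 1 and HFD 3, and the labels name no transgene or deletion. Live CD45+Lin-CD11b+CD24- cells that were positive for Ly6C or CD64 had been sorted, and each mouse was loaded in 1 well, so mouse, well and library cannot be told apart. The depth was 904, 2002, 966 and 1548 cells with 3832283, 7947893, 3824228 and 5584175 UMIs in chow 9, chow 11, HFD 1 and HFD 3. The median cell held 3926, 3747, 3803.5 and 3266 UMIs in that order. With 2 mice against 2, an exact two-sided permutation test cannot go below p = 0.33.

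Lamin A/C is a filament protein that lines the inner face of the nuclear envelope and gives the nucleus its stiffness. The amount of it is known to differ widely between tissues and to be low in circulating blood cells. AHNAK is a giant scaffold protein below the plasma membrane that binds the S100A10 and annexin A2 complex and actin. In the colon, Ly6C+ blood monocytes enter the lamina propria, gain MHC class II while they lose Ly6C, and end as resident macrophages rich in complement C1q. The comparison asks where on this path each gene was used, and whether HFD moved its level within a stage or only moved the cells between stages.

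In the mouse genome (build GRCm38, GENCODE M21), Lmna (ENSMUSG00000028063) lies on the minus strand of chromosome 3 from 88480147 to 88509956, a span of 29810 bases. Its main coding transcript, Lmna-201, has 12 exons and 3156 bases. Ahnak (ENSMUSG00000069833) lies on the plus strand of chromosome 19 from 8989284 to 9076914, a span of 87631 bases. Its transcript Ahnak-202 has 5 exons and 18100 bases, of which 17498 sit in a single exon. No other annotated gene overlapped either of them. Reads of this kit start near the 3′ end of a transcript. Whether transcript length changed the number of UMIs of either gene was not tested.

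The promoter sequences are shown because the levels of the genes are the readout throughout, and the windows differ in their motifs. Each window is from RefSeq (GRCm38.p6), runs 5′ to 3′ on the gene's strand, and covers 250 bases before and 50 bases after the start site. Capitals mark matches, on either strand, to the AP-1 motif (TGANTCA) or the GC box (GGGCGG, or its reverse complement). The Lmna window is chr3:88503303-88503602 on the minus strand, and the Ahnak window is chr19:8989034-8989333 on the plus strand.
Lmna: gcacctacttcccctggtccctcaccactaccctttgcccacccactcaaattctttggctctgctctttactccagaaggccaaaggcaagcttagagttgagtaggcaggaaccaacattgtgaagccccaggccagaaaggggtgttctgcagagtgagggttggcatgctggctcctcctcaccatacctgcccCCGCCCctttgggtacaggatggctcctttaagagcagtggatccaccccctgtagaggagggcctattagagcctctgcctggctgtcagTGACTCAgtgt
Ahnak: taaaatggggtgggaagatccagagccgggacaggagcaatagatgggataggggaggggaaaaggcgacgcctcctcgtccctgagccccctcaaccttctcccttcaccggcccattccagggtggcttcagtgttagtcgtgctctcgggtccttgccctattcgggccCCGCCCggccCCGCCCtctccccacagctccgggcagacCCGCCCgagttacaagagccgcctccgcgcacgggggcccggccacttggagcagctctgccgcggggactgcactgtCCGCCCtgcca
The Lmna window held 1 AP-1 match and 1 GC box match and was 56.3% G or C. The Ahnak window held 4 GC box matches and no AP-1 match and was 67.3% G or C. A second annotated Lmna start, with its window at chr3:88493263-88493562, held none of the 4 motifs searched. Over 32851 mouse promoter windows of this size, 7.81% held an AP-1 match and 35.7% a GC box. The interferon motifs, GAS (TTCNNNGAA) and the ISRE core (2 GAAA blocks, 2 bases apart), matched in neither gene, against 8.30% and 3.44% of all windows.

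Each cell was placed on the path by other genes. Cells with at least 30 C1qa, C1qb and C1qc UMIs per 10000 were called C1q-high. The rest were Ly6C+ with at least 1 Ly6c2 UMI and MHC II-high with at least 300 Cd74, H2-Aa, H2-Ab1 and H2-Eb1 UMIs per 10000. Ly6C+ MHC II-low cells numbered 66, 76, 297 and 385 in chow 9, chow 11, HFD 1 and HFD 3. Ly6C- MHC II-high C1q-low cells, named the intermediate stage by these limits alone, numbered 25, 22, 92 and 168. C1q-high cells numbered 762, 1837, 446 and 635. Ly6C+ MHC II-high cells numbered 3 and 17 in the chow mice, under the 20 per mouse asked for a fit, and 79 and 282 in the HFD mice. A further 48, 50, 52 and 78 cells were low for Ly6c2, MHC II and C1q alike. The stages were checked on marker genes, and markers that the limits used are named as such. Ccr2, a chemokine receptor of monocytes, was at 679, 928, 1138 and 932 UMIs per 1000000 UMIs (CPM) in the Ly6C+ MHC II-low cells and at 231, 282, 492 and 460 CPM in the C1q-high cells. Adgre1, which encodes the macrophage marker F4/80, was at 196, 246, 186 and 185 CPM in the former and at 692, 693, 296 and 226 CPM in the latter. The 5 dendritic cell markers summed to 532, 463, 655 and 642 CPM in the intermediate stage and to 36.9, 39.5, 35.4 and 44.5 CPM in C1q-high cells. In the Ly6C+ MHC II-low cells they summed to 124, 104, 58.9 and 67.9 CPM, so they were highest in the intermediate stage. Both of the 2 tested were called lower in C1q-high than in intermediate cells, beside 56 of 5514 genes called lower. Of these 2, 1 was called higher in intermediate cells than in the monocytes, beside 156 of 5514 genes. Ccr2 in the intermediate stage was at 969, 718, 458 and 663 CPM and Adgre1 at 437, 287, 53.4 and 87.1 CPM. Of the 5 tested monocyte markers, 4 were called lower there than in the monocytes (median -3.30), beside 157 of 5514 genes. The list includes Ly6c2, which the limits exclude in that stage. None of the 6 tested resident macrophage markers was called higher there than in the monocytes, where 156 of 5514 genes were. Their median difference was 0.57 log2 units, and the count is near that of any genes. The list includes C1qa, C1qb and C1qc, which the limits hold low in both groups, so its count cannot place the stage. These markers do not settle where the stage lies, so its place between the others rests on the limits. A step to or from it below is a difference between groups of cells, not a shown course. Markers of B and plasma cells stood out too. In the Ly6C+ MHC II-low cells their summed level was 40599, 34662, 8250 and 5910 CPM. Leaving out the 16 cells with over 5% immunoglobulin UMIs, a step added after the data were seen, gave diet changes there of -0.97 log2 units for Lmna and -0.65 for Ahnak, close to those from all cells. Mice shared 23 cell barcodes (46 cells), and leaving these cells out changed no diet call on either gene.

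Lmna was higher in C1q-high macrophages than in Ly6C+ MHC II-low monocytes in every mouse. In the monocytes its level was 187 CPM in chow 9, 171 in chow 11, 102 in HFD 1 and 93.1 in HFD 3. In the C1q-high cells it was 825, 813, 242 and 264 CPM. The ratio of the C1q-high to the monocyte level was therefore 4.42 and 4.77 in the chow mice and 2.38 and 2.83 in the HFD mice. Fitted over the sums of each mouse and stage with the mouse as a term, Lmna was 1.87 log2 units (SE 0.22) higher in C1q-high cells than in the monocytes. This was among the 18.7% of 5514 tested genes called in that comparison at a false discovery rate (FDR) of 1%, the threshold used throughout.

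The intermediate stage stood between the others for Lmna in both chow mice, and close to or below the monocyte level in the HFD mice. Its Lmna level was 724 and 351 CPM in chow 9 and chow 11, 3.88 and 2.06 times the monocyte level of the same mouse. In HFD 1 and HFD 3 it was 73.1 and 95.1 CPM, 0.719 and 1.02 times the monocyte level. These sums rest on 53, 22, 26 and 48 Lmna UMIs. The fitted difference from the monocytes was 0.52 log2 units (SE 0.26) and was not called (5.68% of genes were). It rested on single mice, at 0.084 without chow 9 and 0.88 without HFD 1. The step from the intermediate stage to C1q-high cells was 1.35 log2 units (SE 0.24) and was called (3.75% of genes were). It was not called without chow 11 (1.25), at doubled stage limits (1.04) or without the mouse as a term (1.32).

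Ahnak ran the other way along the path in every mouse. Its level in the monocytes was 560, 553, 366 and 416 CPM in chow 9, chow 11, HFD 1 and HFD 3. In the C1q-high cells it was 111, 170, 89.0 and 75.9 CPM, so the monocyte level was 5.05, 3.26, 4.12 and 5.48 times as high. Its fitted difference between C1q-high cells and the monocytes was -1.99 log2 units (SE 0.19) and was called. In the intermediate stage the Ahnak level was 382 and 367 CPM in the chow mice and 107 and 117 CPM in the HFD mice. The monocytes were 1.46 and 1.51 times higher than that in the chow mice and 3.43 and 3.56 times higher in the HFD mice. The step from monocytes to the intermediate stage was -1.34 log2 units (SE 0.21) and was called, and the further step to C1q-high cells was -0.65 (SE 0.22) and was not called, with -0.42 without chow 9.

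**Figure D1:**
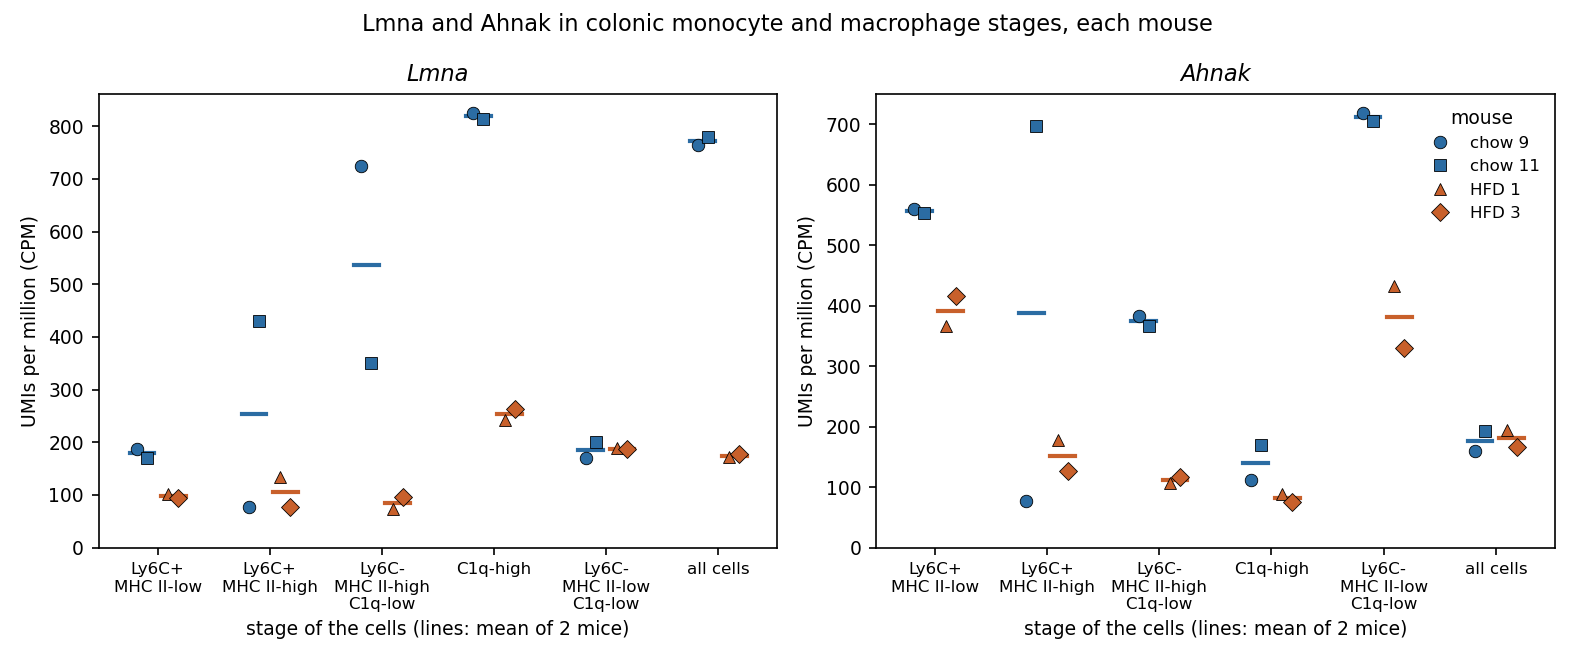
Level of Lmna (left) and Ahnak (right), in CPM of the summed cells, by stage (horizontal axis) and over all cells. Points are single mice (blue chow, orange HFD) and lines are the mean of 2 mice. In C1q-high cells the chow mice sit at 825 and 813 CPM of Lmna and the HFD mice at 242 and 264 CPM, whereas Ahnak of each mouse is lower in C1q-high than in Ly6C+ MHC II-low cells.

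The 2 small groups outside the fits were less ordered. In Ly6C+ MHC II-high cells Lmna was at 77.1 and 430 CPM in the chow mice and 135 and 76.2 CPM in the HFD mice, and the diets overlapped. The chow 9 value is a single UMI in 3 cells. Ahnak in these cells was at 77.1, 697, 177 and 127 CPM. In the cells low for all 3 markers Lmna was at 169, 200, 189 and 186 CPM, again with overlap. Ahnak in them was at 719 and 706 CPM under chow and 433 and 330 CPM under HFD, which did not overlap.

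Within C1q-high cells the Lmna level was lower under HFD. It was 819 ± 8.14 CPM (SD, n = 2) in chow and 253 ± 15.7 CPM in HFD, 3.24-fold lower, and the mice of the diets did not overlap. These values rest on 2819, 6099, 437 and 723 Lmna UMIs, so counting error is small beside the gap. The fitted log2 fold change was -1.84 (SE 0.13), which was called. Since this contrast was used to pick the gene, the 10.3% of 5081 genes called there is given only as its setting. Without HFD 3 the fold change was -1.88 and was no longer called, and the genes called in all fell from 524 to 22 (83 without HFD 1).

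In the intermediate stage Lmna was 537 ± 263 CPM in chow and 84.1 ± 15.6 CPM in HFD, 6.39-fold lower. Marker genes moved with it. The 5 monocyte markers, of which Ly6c2 is at 0 by the limits, summed to 1720, 3048, 5325 and 7019 CPM in these cells. The 8 resident macrophage markers summed to 1543, 2027, 759 and 830 CPM, with Lyve1 at 0 and the C1q genes held low by the limits. A list of 13 genes of the response to tissue handling had a median change of -0.60 log2 units, against 0.08 over all genes. Of the 13, 1 was called lower, beside 36 of 4552 genes. The part of these 3 lists in the Lmna difference was not tested. The chow mice differed from each other by more than the HFD mice did, but neither came near them. The fitted change was -2.70 log2 units (SE 0.33) and was called, beside 1.54% of 4552 genes. Its size moved with the mice and the limits, to -2.08 without chow 9, -3.09 without chow 11 and -3.58 at doubled stage limits. Ward cluster 2, which held the most cells of the stage (159 of 307) but mostly cells of other stages, gave -1.56 and is no check of it. In the Ly6C+ MHC II-low monocytes Lmna was 179 ± 11.3 CPM in chow and 97.4 ± 6.01 CPM in HFD, 1.83-fold lower without overlap. There the resident macrophage markers summed to 866, 1685, 564 and 718 CPM. Of the 5 tested, 3 were called lower under HFD, beside 28 of 4528 genes. This list includes the C1q genes, which the limits hold low in these cells. The fitted Lmna change of -0.99 (SE 0.27) was not called, beside 1.57% of 4528 genes called in either direction.

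Ahnak was lower under HFD in each of the 3 fitted stages, with no overlap of the mice. In the monocytes it was 556 ± 4.34 CPM in chow and 391 ± 35.1 CPM in HFD, 1.42-fold lower, a fitted change of -0.63 (SE 0.20) that was not called. In the intermediate stage it was 375 ± 10.8 CPM against 112 ± 7.12 CPM, 3.35-fold lower, from 28, 23, 38 and 59 UMIs. With every cell thinned to 2000 UMIs it was 239 ± 39.7 CPM against 110 ± 12.6 CPM, 2.16-fold lower, from 8 UMIs in either chow mouse. The fitted change without thinning was -1.77 log2 units (SE 0.32) and was called with all 4 mice, and after thinning the stage had too few cells for a fit. It was not called without chow 9 (-1.74), without HFD 1 (-1.72) or without HFD 3 (-1.82). In C1q-high cells Ahnak was 140 ± 41.7 CPM in chow and 82.5 ± 9.29 CPM in HFD, 1.70-fold lower, and chow 11 at 170 CPM stood well above chow 9 at 111 CPM. The fitted change of -0.92 (SE 0.22) was not called. It was called without chow 9 (-1.19), with the likelihood-ratio test (-0.92), with DESeq2 (-0.91) and without the filter on low counts (-0.88). Without chow 11 the change was smaller, at -0.59, and without HFD 3 it was -0.79.

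The differences of the diet effect between stages were not called for either gene, which does not show that the effects were equal. In simulated data the fit of this difference for C1q-high cells recovered 23.3% of the genes given a change. Relative to the monocytes, the Lmna change was -1.62 log2 units (SE 0.36) further in the intermediate stage and -0.93 (SE 0.28) further in C1q-high cells. The respective Ahnak values were -1.07 (SE 0.34) and -0.36 (SE 0.25). The last ran from -0.64 without chow 9 to -0.046 without chow 11, and the first Lmna value from -1.10 without chow 9 to -2.03 without chow 11. Only 0.163% and 1.61% of 5514 genes were called in these comparisons. The Lmna value for the intermediate stage was called by the likelihood-ratio test (-1.62), with library sizes alone (-1.80) and without the filter (-1.60).

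**Figure D2:**
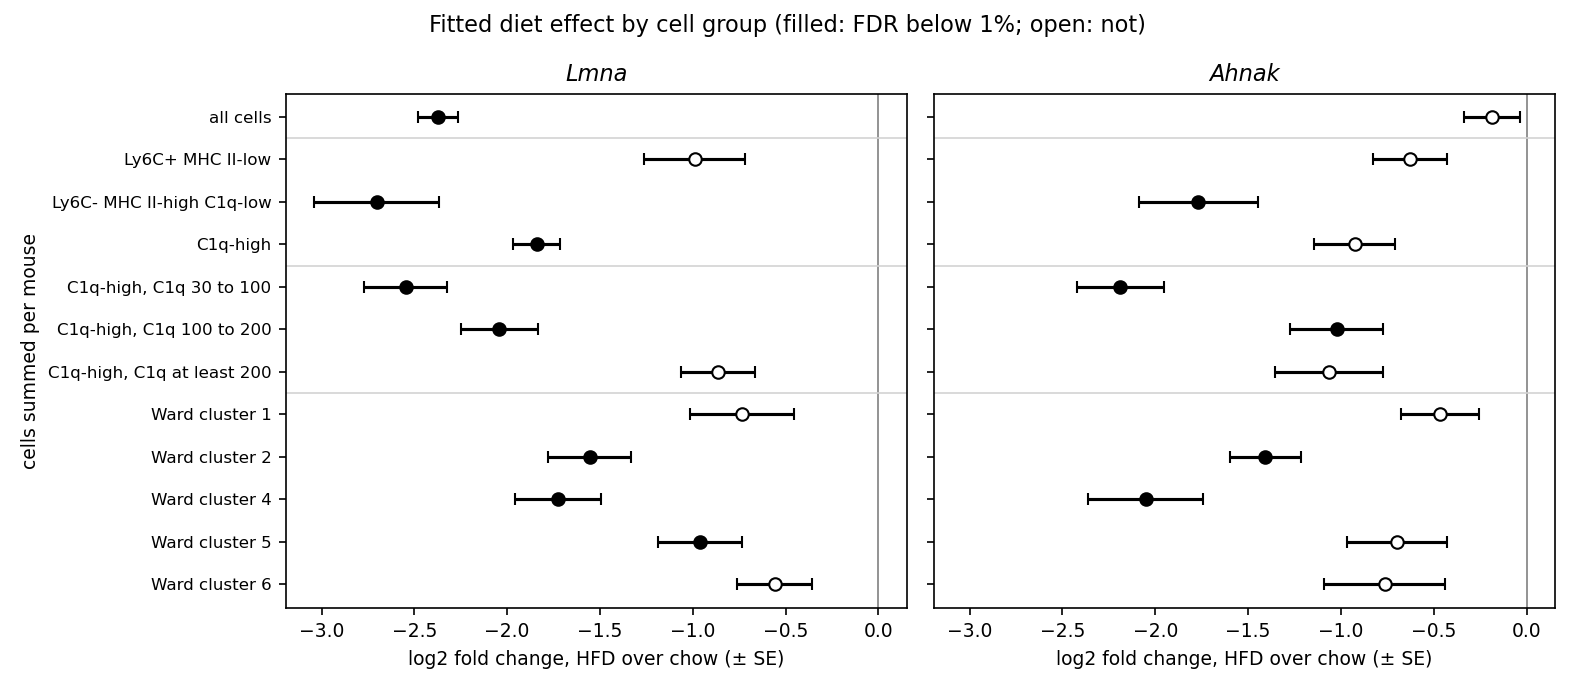
Fitted log2 fold change of HFD over chow with its standard error for Lmna (left) and Ahnak (right), for all cells, the 3 fitted stages, 3 bands of C1q within the C1q-high cells, and Ward clusters of the cells. Filled points passed an FDR of 1% and open points did not. Each point is left of 0, and the Lmna change runs from -2.70 in Ly6C- MHC II-high C1q-low cells to -0.56 in Ward cluster 6.

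The C1q-high stage is wide, and the HFD mice had a larger share of it at the low end. It was therefore cut into bands of 30 to 100, 100 to 200 and at least 200 C1q UMIs per 10000, a cut added after the data were seen. The low band held 70, 123, 164 and 261 cells in chow 9, chow 11, HFD 1 and HFD 3, and the top band 325, 896, 131 and 136. In the low band Lmna was at 838 and 731 CPM in the chow mice and at 119 and 178 CPM in the HFD mice, 5.29-fold lower. In the middle band it was at 972, 840, 290 and 197 CPM, 3.72-fold lower. In the top band it was at 664 and 798 CPM in the chow mice and at 327 and 507 CPM in the HFD mice, 1.75-fold lower and still without overlap. Below 30 it was at 273, 231, 108 and 92.8 CPM. In the chow mice Lmna was thus between 664 and 972 CPM in each C1q-high band, and in both HFD mice it was higher in the top band than in the low band.

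The fitted Lmna changes were -2.55 (SE 0.22), -2.04 (SE 0.21) and -0.86 (SE 0.20) log2 units from the low to the top band. The first and second were called, beside 5.2% and 10.3% of genes, and the change in the top band was not, beside 1.53%. The difference between the top and the low band was 1.61 log2 units (SE 0.23) and was called, beside 0.846% of 5435 genes. Without chow 9 (1.44) or HFD 3 (1.55) it was not called. For Ahnak the levels were 382, 521, 123 and 102 CPM in the low band, 4.01-fold lower under HFD. They were 99.5, 160, 75.8 and 67.2 CPM in the middle band and 84.8, 146, 64.7 and 52.2 CPM in the top band, 1.81-fold and 1.97-fold lower. The fitted changes were -2.19 (SE 0.23), -1.02 (SE 0.25) and -1.06 (SE 0.29), of which the first and second were called. The difference between the top and the low band, 1.05 (SE 0.31), was not called.

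**Figure D3:**
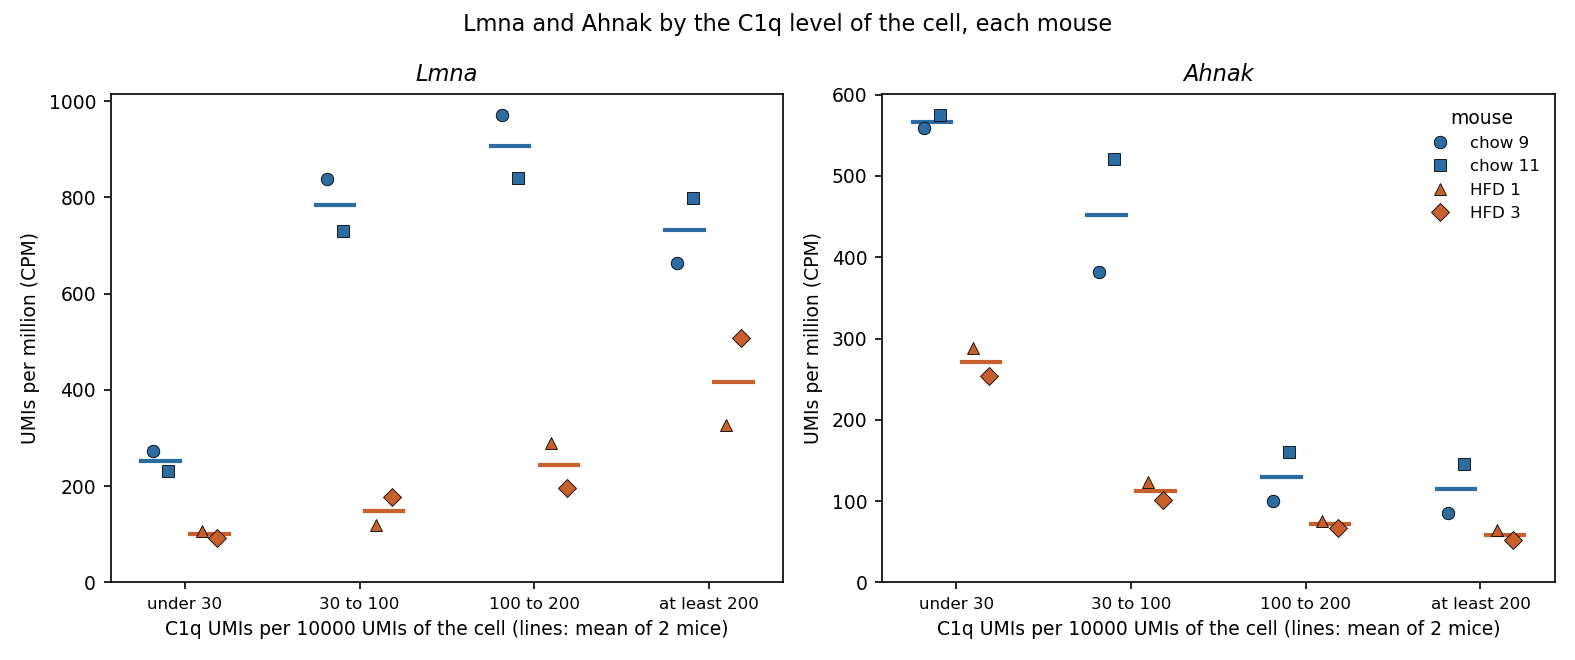
Level of Lmna (left) and Ahnak (right), in CPM, by the C1q UMIs per 10000 UMIs of the cell. Points are single mice (blue chow, orange HFD) and lines are the mean of 2 mice. Lmna of the chow mice is at 838 and 731 CPM from 30 to 100 C1q, where the HFD mice are at 119 and 178 CPM, and the diets lie closest among the C1q-high bands at 200 or more.

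Other measures also differed between the diets in these bands. The 13 genes of the response to tissue handling summed to 20652, 19372, 10720 and 11623 CPM in the low band. In the middle band the list summed to 27623, 26850, 14432 and 11504 CPM, and in the top band to 22665, 22751, 17588 and 15166 CPM. Over all C1q-high cells it summed to 24941, 24343, 14107 and 12417 CPM, lower in both HFD mice. In the Ly6C+ MHC II-low cells it was at 21091, 16728, 14703 and 16664 CPM. The 5 monocyte markers summed to 336, 495, 2643 and 3579 CPM in C1q-high cells, and the 8 resident macrophage markers to 20454, 21438, 15853 and 14695 CPM, and no gene of these 2 lists was at 0 there. The resident list includes the C1q genes that set the bands. Within the bands it summed to 8092, 7855, 7002 and 6679 CPM (low), 17424, 17892, 15676 and 15369 CPM (middle) and 25445, 25570, 26094 and 25519 CPM (top). The monocyte list was higher under HFD in each band, with 253, 321, 1152 and 1141 CPM in the top band. In the low band the markers of B and plasma cells stood at 38030, 47986, 141 and 106 CPM. Without the 16 immunoglobulin-rich cells the Lmna level in that band was 895, 793, 119 and 178 CPM, 5.70-fold lower under HFD. Ahnak then was at 412, 561, 123 and 102 CPM. Leaving out the 456 C1q-high cells with a Ly6c2 UMI gave a change in C1q-high cells of -1.75 (SE 0.14) for Lmna, which was called, and -1.07 for Ahnak, which was not. The part of the handling genes in the Lmna difference was not tested.

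Clustering gave a second division of the cells. Ward cluster 6, the most C1q-rich, held 2069 of the 3680 C1q-high cells, with 567, 1299, 109 and 96 cells per mouse. Lmna in it was at 833 and 813 CPM in the chow mice and 457 and 679 CPM in the HFD mice, a fitted change of -0.56 (SE 0.20) that was not called, beside 0.215% of 5126 genes. Ahnak in it was at 70.4, 106, 36.7 and 69.2 CPM, so HFD 3 lay close to chow 9, and the change of -0.76 (SE 0.32) was not called. Cluster 3 held 486 C1q-high cells but only 7 and 5 cells of the chow mice, and Lmna in its HFD cells was at 104 and 132 CPM. In cluster 4 the Lmna levels were 837, 645, 225 and 231 CPM and the change of -1.73 was called, as was the Ahnak change of -2.05, beside 1.89% of 5559 genes. Cluster 5, with 621 C1q-high cells, had Lmna at 763, 954, 499 and 403 CPM, a change of -0.96 (SE 0.23) that was called (2.84% of 3982 genes were), and an Ahnak change of -0.70 (SE 0.27) that was not. The size of the Lmna change thus differed with which of the C1q-high cells were taken.

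Over all cells the diets differed widely in Lmna and hardly in Ahnak. Lmna was 773 ± 10.8 CPM in chow and 174 ± 4.06 CPM in HFD, 4.44-fold lower, with single mice at 765.1, 780.3, 171.0 and 176.7 CPM. The fitted change was -2.37 (SE 0.11) and was called, beside 16.2% of 4955 genes. Ahnak was at 159.2, 192.6, 194.3 and 166.5 CPM, 176 ± 23.7 CPM in chow and 180 ± 19.6 CPM in HFD, and the mice overlapped. Its fitted change was -0.19 (SE 0.15), or 0.032 when scaled by library size alone, and was not called.

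The stages that supplied the UMIs were not the same under both diets. C1q-high cells made up 84.3% and 91.8% of the cells in the chow mice and 46.2% and 41.0% in the HFD mice. Ly6C+ MHC II-low monocytes made up 7.30% and 3.80% of the cells under chow and 30.7% and 24.9% under HFD. Of the Lmna UMIs, C1q-high cells gave 96.1% and 98.3% in the chow mice and 66.8% and 73.3% in the HFD mice. Of the Ahnak UMIs they gave 62.1% and 83.2% under chow and 21.7% and 22.4% under HFD. The monocytes gave 19.2% and 8.69% of the Ahnak UMIs under chow and 57.7% and 51.4% under HFD.

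**Figure D4:**
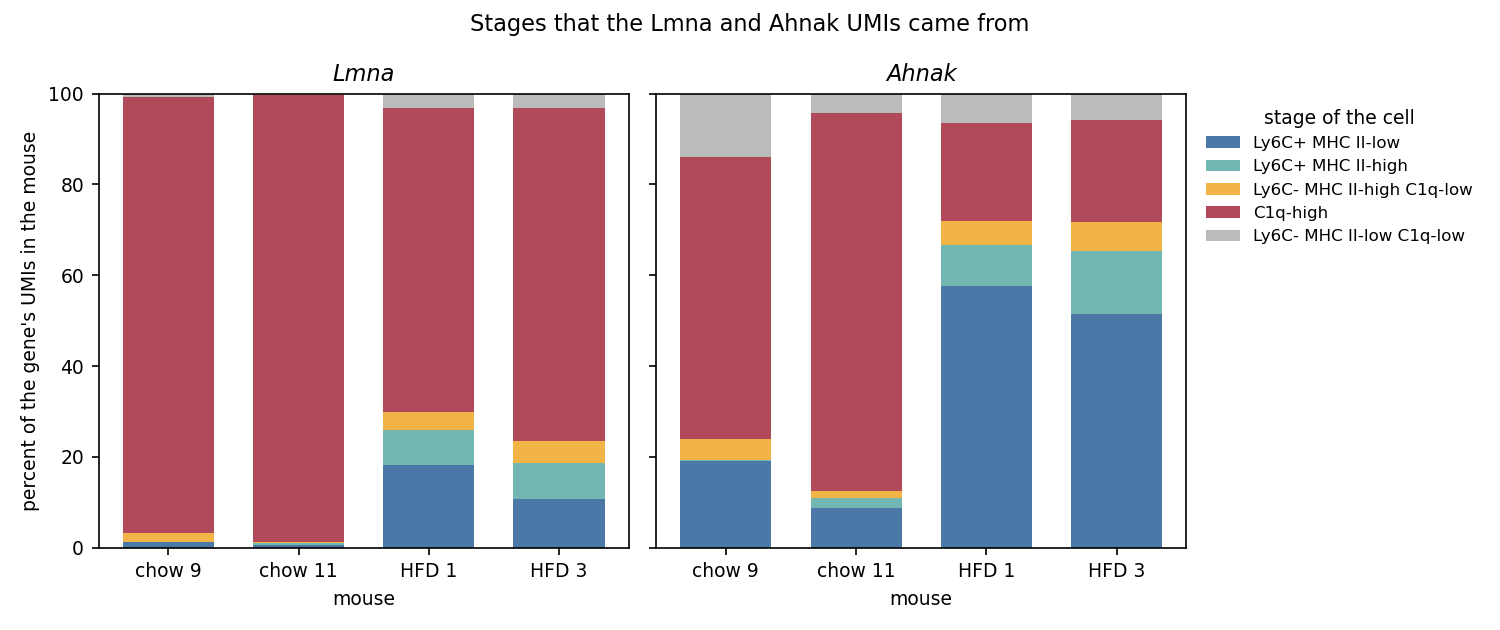
Share of the Lmna (left) and Ahnak (right) UMIs of each mouse, in percent, that came from cells of each stage. C1q-high cells gave 62.1% and 83.2% of the Ahnak UMIs in the chow mice and 21.7% and 22.4% in the HFD mice.

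With every mouse given the same mix of stages, the pooled one, both genes were lower under HFD. Standardised in this way, Lmna was at 642, 637, 201 and 212 CPM, 3.10-fold lower (-1.63 on the log2 scale, against a ratio of 4.44 without it). Standardised Ahnak was at 218, 299, 153 and 144 CPM, 1.74-fold lower (-0.80 on the log2 scale). The level of the 3 Ly6C+ MHC II-high cells of chow 9 enters these values. The overlapping Ahnak levels over all cells thus went with lower levels in each fitted stage and a larger share of Ly6C+ MHC II-low monocytes, in which Ahnak was higher than in C1q-high cells. Cells low for all 3 markers, in which Ahnak was higher than in the monocytes of both chow mice, made up 5.31%, 2.50%, 5.38% and 5.04% of the cells.

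Shares of cells with a UMI were compared at equal depth. Every cell was thinned to 2000 UMIs, which left out 111, 356, 190 and 325 shallower cells of chow 9, chow 11, HFD 1 and HFD 3. A Lmna UMI was then seen in 60.0% and 62.1% of C1q-high cells under chow and in 26.3% and 28.5% under HFD (70.6%, 72.4%, 37.0% and 38.3% before thinning). Cells with 3 or more Lmna UMIs made up 22.7% and 22.3% under chow and 5.87% and 5.60% under HFD. The thinned Lmna level was 858, 805, 263 and 278 CPM, close to the level from all UMIs. In the Ly6C+ MHC II-low monocytes a Lmna UMI was seen in 27.3%, 24.3%, 12.0% and 9.87% of cells. An Ahnak UMI was seen in 56.4% and 58.6% of the monocytes under chow and 40.2% and 48.4% under HFD (62.1%, 69.7%, 56.2% and 55.3% before thinning). In C1q-high cells it was seen in 14.8%, 22.0%, 13.1% and 11.6% (25.9%, 34.0%, 22.2% and 20% before thinning). The matrix holds no cell type known to lack these genes, so the share that free RNA gives was not measured. The median depth was 3168 UMIs in the monocytes and 3996.5 in the C1q-high cells.

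**Figure D5:**
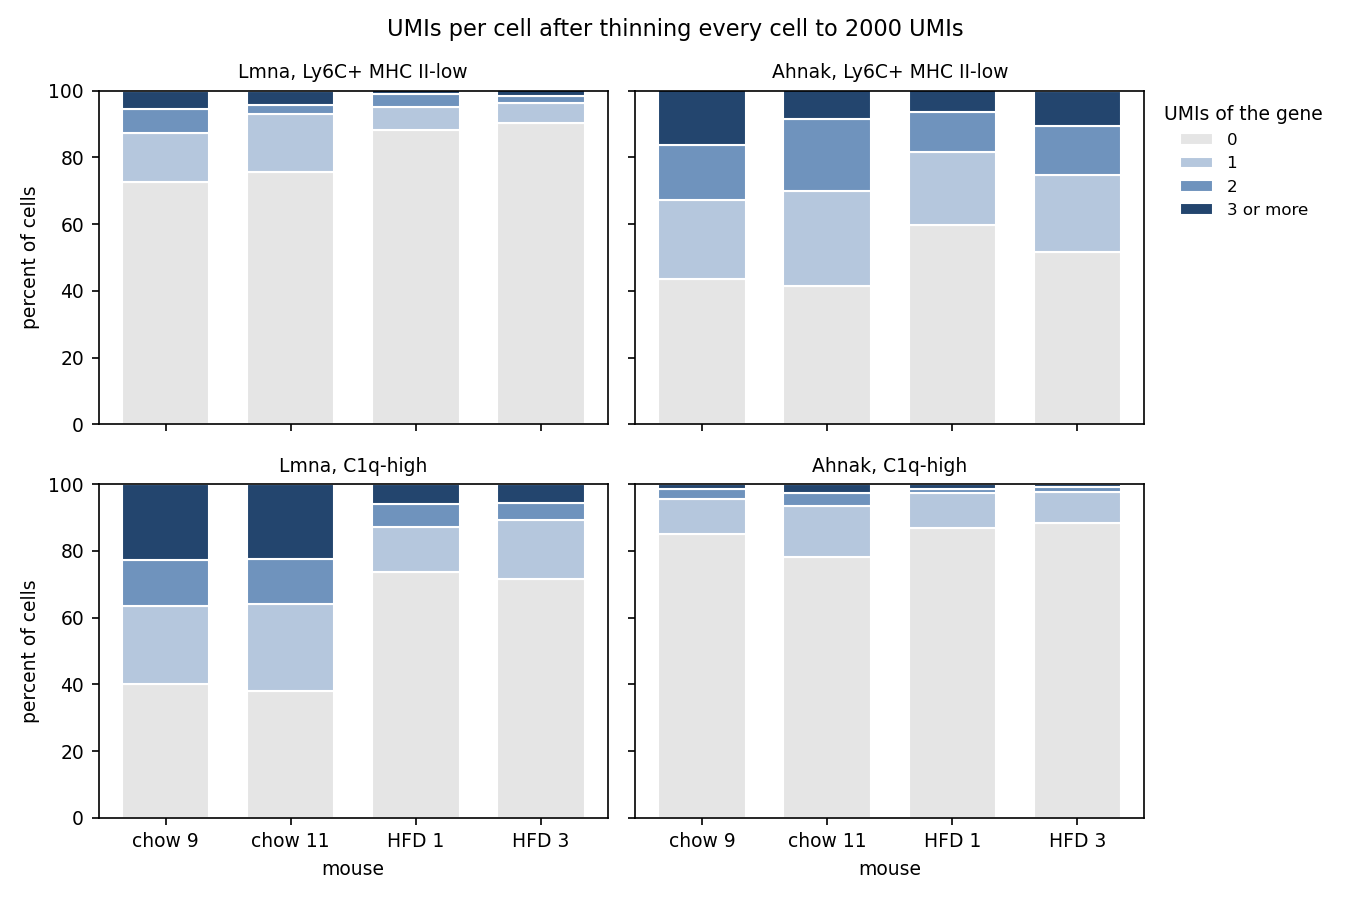
Percent of cells with 0, 1, 2 or 3 and more UMIs of Lmna or Ahnak after thinning each cell to 2000 UMIs, by mouse, in Ly6C+ MHC II-low and C1q-high cells. C1q-high cells with 3 or more Lmna UMIs make up 22.7% and 22.3% in the chow mice and 5.87% and 5.60% in the HFD mice.

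Within C1q-high cells, the cells with more Lmna held more of some structural genes and less of others. The thinned cells with 3 or more Lmna UMIs, 156, 341, 21 and 30 per mouse, were set beside the 275, 578, 264 and 383 cells with none. Their median C1q level per 10000 UMIs was 185 against 197 in chow 9, 200 against 203 in chow 11, 180 against 135 in HFD 1 and 204 against 114 in HFD 3. So the Lmna-rich cells were not the more C1q-rich ones under chow, and were under HFD. Vim, which encodes the intermediate filament vimentin, was 2.08, 2.23, 2.73 and 2.78 times as high in the Lmna-rich cells. Ahnak was 2.31, 2.43, 1.71 and 4.44 times as high. S100a10, the partner of AHNAK and annexin A2, was 1.75, 3.11, 1.15 and 2.72 times as high, and Anxa2 itself 1.26, 2.44, 3.65 and 2.85 times. Tubb6, a tubulin, was 1.76, 1.82, 1.91 and 1.72 times as high. The HFD ratios rest on the few UMIs of 21 and 30 Lmna-rich cells. Of the genes on the lists with at least 100 CPM, 6 of 15 of the cortical cytoskeleton and 5 of 12 of the handling response were higher in all 4 mice, against 141 of 1282 genes (11%) in all. Of the 4 monocyte markers at that level 3 were lower in the Lmna-rich cells of all 4 mice, with Ccr2 at 0.485, 0.857, 0.407 and 0.723 times, and Igha was at 0.0282, 0.164, 1.18 and 2.07 times. Also lower in all 4 mice were 2 of 15 of the cortical cytoskeleton (Tmsb4x and Pfn1), Anxa3, Emd and 209 of the 1282 genes. An Ahnak UMI was seen in 16.2%, 25.1%, 13.8% and 15.0% of C1q-high cells with a Lmna UMI and in 12.7%, 16.8%, 12.9% and 10.2% of those without. These counts come from cells chosen by their Lmna UMIs and carry no test.

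Genes whose levels ran most like Lmna over the 12 sums of mouse and stage were Rab7b (Pearson r 0.954), Pf4 (0.942), C5ar1 (0.938), Cxcl1 (0.928) and Cd81 (0.922), out of 3998 genes. Pf4, a chemokine of platelets and macrophages, was at 2275 and 2145 CPM in the C1q-high cells of the chow mice and at 504 and 289 CPM in those of the HFD mice. In the intermediate stage Pf4 was at 1038, 95.8, 22.5 and 17.8 CPM, high in chow 9 as Lmna was. C5ar1, the receptor for complement C5a, was at 716, 694, 338 and 247 CPM in C1q-high cells. Those most like Ahnak were Vim (0.961), Ccl9 (0.954), Rassf4 (0.935), Arhgap45 (0.928) and Sfxn3 (0.918). Ccl9, a chemokine, was at 1822, 1781, 1014 and 887 CPM in the monocytes and at 414, 489, 369 and 279 CPM in C1q-high cells. Between Lmna and Ahnak themselves r was -0.0848. The sums share their mice, so these values describe likeness and no more.

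Partners of Lmna at the nuclear envelope were too few to set against the 10.3% of all genes called between the diets in C1q-high cells. None of the 4 tested genes of the lamins and their processing was called between the diets (median log2 fold change -0.26, against -0.02 over all genes). Lmnb1, the gene for lamin B1, was at 46.5, 40.3, 100 and 73.7 CPM, a change of 0.86 (SE 0.20) that was not called and was -0.50 in Ward cluster 6. Zmpste24, the protease that matures prelamin A, was at 40.7, 34.4, 34.8 and 34.7 CPM, a change of -0.25 (SE 0.19). None of 7 inner nuclear membrane genes was called (median 0.38), with Emd, the gene for emerin, at 108, 122, 162 and 174 CPM and Tor1a at 115, 93.3, 141 and 157 CPM. Of the linkers between nucleus and cytoskeleton, Sun2 was at 21.1, 24.7, 9.95 and 12.8 CPM (-1.14, SE 0.26) and Syne1 at 19.0, 19.1, 13.8 and 10.9 CPM (-0.78, SE 0.27), and neither was called. Between C1q-high cells and monocytes, Lmnb1 (-0.02, SE 0.22) and Zmpste24 (0.48, SE 0.29) were not called. Tmpo, which encodes the lamin-binding protein LAP2, was lower in C1q-high cells (-1.75, SE 0.29) and was called. Syne1, the gene for nesprin 1, was called higher in C1q-high cells, but in the monocytes it was at 0 in 3 mice and at 4.16 CPM in chow 11.

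Several partners of Ahnak shared its direction along the path. Of 10 tested genes for annexins, S100 partners and membrane repair, 6 were called lower and 2 higher in C1q-high cells than in monocytes (median -0.87), beside 9.12% of all tested genes called lower and 9.61% called higher. Anxa2 (-2.52, SE 0.20), Anxa1 (-2.07, SE 0.23) and S100a10 (-1.90) were the genes lowered most. Myof, the gene for myoferlin, was higher by 1.40 log2 units, a call lost without chow 9 (1.2), chow 11 (1.2) or HFD 1 (1.46). In the monocytes Myof was at 0 in both chow mice and at 23.1 and 34.8 CPM in the HFD mice. Anxa2 was at 1516, 1290, 1272 and 1248 CPM in the monocytes and at 148, 182, 264 and 245 CPM in C1q-high cells. Between the diets in C1q-high cells 2 of 10 were called higher and 1 lower, beside 5.29% and 5.02% of all tested genes. S100a11 rose by 1.15 log2 units (SE 0.15), from 197 and 175 CPM to 484 and 425 CPM, whereas in Ward cluster 6 its change was -0.43, and Anxa4 rose by 1.07 (SE 0.20). Anxa6 fell by 0.80 log2 units (SE 0.16). None of these 3 calls held without HFD 1 or without HFD 3. Over all cells, S100a11 (1.17), Anxa2 (1.04) and S100a10 (0.65) were called higher under HFD, beside 7.67% of all tested genes, and none of these calls held without either HFD mouse.

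Genes of the cortical cytoskeleton, the actin-rich layer under the membrane, were mostly lower in C1q-high cells. Of 24 tested genes, 15 were called lower and none higher in C1q-high cells than in monocytes (median -0.84), beside 9.12% and 9.61% of all tested genes, led by Lsp1 (-2.62), Tmsb10 (-2.52), Plec (-2.15) and Zyx (-1.96). Between the diets in C1q-high cells, 1 of 22 was called, beside 10.3% of all genes. Tmsb10, which encodes an actin-sequestering thymosin, was at 152, 115, 535 and 654 CPM, higher by 2.01 log2 units (SE 0.18), and without HFD 3 by 1.88, which was not called. The rise of Tmsb10 was larger in C1q-high cells than in monocytes by 1.61 log2 units and that of S100a11 by 1.15, and both differences were called. The S100a11 difference was not called without chow 9 (1.07) or HFD 3 (1.05). In the intermediate stage Vim was the only 1 of 23 genes called, beside 1.54% of all genes. It was at 2580, 3479, 1433 and 1363 CPM, lower under HFD by 1.14 log2 units (SE 0.22), and was not called without chow 11, HFD 1 or HFD 3. In the monocytes no gene of the 5 lists was called between the diets, where 1.57% of all genes were, so the count is near that of any genes. Over all cells 4 of 24 cortical genes were called higher under HFD, Tmsb10 (2.09), Zyx (1.32), Cnn2 (0.81) and Coro1a (0.62), and none lower, beside 7.67% and 8.58% of all tested genes. All 4 calls were lost without HFD 3. Lmnb1 (0.86) and Tmpo (1.09) were also called higher over all cells, neither of them without chow 11, HFD 1 or HFD 3, and Sun2 (-1.01) was not called, while Lmna was 4.44-fold lower.

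Transcript length and depth were set beside the members' values. Length is that of the longest annotated transcript, which for Lmna is a retained-intron transcript of 3948 bases. In C1q-high cells 35.0% of the tested genes were as long as Lmna by this measure or longer and 13 genes (0.256%) as long as Ahnak or longer. Genes of at least 8 kb had a median diet fold change of -0.16 log2 units in C1q-high cells and genes under 2 kb of 0.17. In the other fits the long genes had medians of -0.19 (all cells), -0.19 (intermediate stage) and -0.13 (monocytes), and the short genes 0.17, 0.23 and 0.06. Genes of 2 to 4 kb, to which Lmna belongs, had a median of -0.03 in C1q-high cells. The part of length in the changes of Lmna and Ahnak was not tested.

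The C1q-high cells of each mouse were also split into 3 equal groups by UMIs per cell, given here from the shallow to the deep group. Lmna was at 959, 879 and 742 CPM in chow 9 and at 873, 743 and 837 CPM in chow 11. It was at 417, 292 and 166 CPM in HFD 1 and at 191, 294 and 267 CPM in HFD 3. In each depth group the Lmna levels of the diets did not overlap. Ahnak was highest in the shallow group of each mouse, with 187, 94.2 and 93.5 CPM in chow 9, 294, 159 and 137 CPM in chow 11, 187, 93.9 and 60.1 CPM in HFD 1 and 113, 76.6 and 64.2 CPM in HFD 3. Chow 9 and HFD 1 were nearly equal in the shallow and middle groups and apart in the deep group.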

How the data were processed

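Sorted colonic cells of 4 mice were captured with 10x 3′ v2 chemistry. The authors pseudoaligned the reads with Kallisto 0.46.0 and BUStools 0.39.2 (build mm10 per the labels), filtered cells and genes, and kept cells annotated as monocytes or macrophages. The deposited values are raw UMI counts, without normalization, in 1 table of 5420 cells. Of its 11820 gene identifiers, 11819 matched a symbol. UMIs were summed per mouse and stage. Fits used edgeR 4.0.16 in R 4.3.3 (TMM, quasi-likelihood test, Benjamini-Hochberg adjustment, FDR of 1%) after a filter (over 1 CPM in 2 or more sums, detection in 5% or more of the cells). Stage fits had the mouse as a term. A stage was fitted with at least 20 cells per mouse. CPM values are plain shares of UMIs. Alternatives were the edgeR likelihood-ratio test, DESeq2 1.42.0, library sizes alone, no filter, halved or doubled stage limits, Ward clusters (6, on 8 principal components, with scipy 1.17.1 and scikit-learn 1.9.0), thinning to 2000 UMIs, removal of doublets, and leaving out each mouse. Scrublet, run in scanpy 1.11.5, called 38 cells (0.701%) doublets, which were kept. Within 20% of the C1q limit lay 100 cells, and of the MHC II limit 117. Nothing pairs the mice across diets, and p-values from 2 mice a diet measure the spread between these mice. The fits were tested on simulated data. Of the genes given a change, the diet fits recovered 95.8% in C1q-high cells, 69.9% in monocytes and 33.0% in the intermediate stage. The fit of the difference of diet effects in C1q-high cells recovered 23.3%. Named genes were both members, up to 4 called genes of each of the 5 lists by size of change (else the 2 most abundant), the 5 genes most like each member over log2(CPM + 1), and genes of the Lmna-rich cells picked after their values were seen. The members and lists were chosen with earlier results of these data known.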

Additional observations from a re-analysis of the deposited data

Results flagged for a closer look

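The diet effect on Lmna differed between bands of C1q within the C1q-high cells. The change between HFD and chow was -2.55 log2 units from 30 to 100 C1q UMIs per 10000 and -0.86 at 200 or more, a difference of 1.61 log2 units (SE 0.23) on the called side of an FDR of 1% in edgeR's quasi-likelihood test. It was 1.64 with DESeq2, 1.59 with library sizes alone and 1.48 without a filter. Without chow 9 (1.44) and without HFD 3 (1.55) it was not called. Lmna was chosen with its diet and stage differences known, and the bands were added after the data were seen, so the value is a description and the call no evidence.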

How the results depend on the processing

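No paired analysis was possible because the mice of the diets share no replicate numbers. Of 244 alternatives run on values of Lmna and Ahnak, 220 kept direction and side of the threshold, 13 lost the call, 10 gained it and 1 reversed. The 220 include both genes in Ward cluster 2, which is no check of the intermediate stage. The reversed value was Ahnak over all cells, 0.032 with library sizes alone. The Lmna change in C1q-high cells was not called in Ward cluster 6 (-0.56) or at 200 or more C1q (-0.86), and ran from -1.88 to -1.81 when a mouse was left out. That of Ahnak was called by the likelihood-ratio test (-0.92), DESeq2 (-0.91), without the filter (-0.88), from 30 to 100 C1q (-2.19), from 100 to 200 (-1.02) and in Ward cluster 4 (-2.05), and ran from -1.19 to -0.59 with a mouse left out. Ahnak in the intermediate stage ran from -1.82 to -1.72. The intermediate-stage Lmna difference from the monocyte diet effect was called by the likelihood-ratio test (-1.62), with library sizes alone (-1.80) and without the filter (-1.60). Without the mouse as a term, Ahnak from monocytes to the intermediate stage (-1.24) and Lmna from monocytes (2.23) and from the intermediate stage (1.32) to C1q-high were not called. The last was also lost at doubled limits (1.04), and ran from 1.20 to 1.67 with a mouse left out. The band difference of Lmna ran from 1.44 to 1.87. Standardising the stage mix gave -1.63 for Lmna and -0.80, a change of sign against the plain ratio, for Ahnak. Thinned shares of cells with a UMI were, for Lmna, 25.8% (monocytes, chow), 61.1% (C1q-high, chow) and 27.4% (C1q-high, HFD), and for Ahnak 57.5% and 44.3% (monocytes, chow and HFD) and 18.4% and 12.3% (C1q-high).

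The number of genes called moved more. For the diet in monocytes it was 71, and 110 (likelihood-ratio), 34 (DESeq2), 41 and 39 (halved and doubled limits), 20 (thinned), 31 (Ward cluster 1) and 46 to 128 without a mouse; edgeR without the filter called 0, with 763 at an unadjusted p under 0.05. In the intermediate stage it was 70, and 122 (likelihood-ratio), 39 (DESeq2), 148 (no filter) and 32 to 64 without a mouse. In C1q-high cells it was 524, and 900 (likelihood-ratio), 875 (no filter), 11 (Ward cluster 6), 247 and 79 (low and top band) and 22 (without HFD 3) to 1041 (without chow 9). Over all cells it was 805, and 1307, 1218 and 155 to 920 in the same order without Ward clusters or bands. Between the intermediate stage and monocytes it was 313, and 489 (likelihood-ratio), 502 (no filter), 80 (no mouse term) and 120 to 270. Between C1q-high cells and monocytes it was 1033, and 663 without the mouse term. Between C1q-high cells and the intermediate stage it was 207, and 351, 397, 44 and 114 to 150 in the order of the intermediate stage. For the difference of diet effects it was 9 in the intermediate stage, and 29 (likelihood-ratio), 2 (DESeq2), 15 (library sizes), 20 (no filter), 4 (doubled limits) and 1 to 16, and 89 in C1q-high cells, and 143 (likelihood-ratio), 57 (doubled limits) and 42 to 63. Library sizes alone moved the median diet change to 0.12 in C1q-high cells and 0.21 over all cells, and the genes called higher and lower from 269 and 255 to 471 and 232, from 380 and 425 to 679 and 304, and in monocytes from 43 and 28 to 61 and 20. Of the list genes, 4 values reversed in 442 alternatives, Lmnb1 (-0.50), Syne1 (0.14) and S100a11 (-0.43) in Ward cluster 6 and the stage difference of Lmnb1 without chow 9 (a range of -0.18 to 0.13 over the mice left out). Halved limits and thinning left the intermediate stage under 20 cells in at least 1 mouse (19 and 15 cells in the chow mice after thinning), so it could not be fitted there. Few UMIs limit the intermediate stage and the Ly6C+ MHC II-high cells of the chow mice.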
